A study of Mus musculus with 6 samples.

Results

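Serpins, kallikreins and epithelial serine proteases were examined in regenerating corneal epithelium of diabetic and control mice. The members were the genes of the expression table whose symbol marks a serpin (Serpin with a clade letter and number), a kallikrein (Klk), a Prss or Tmprss serine protease or a Kunitz inhibitor (Spint), together with St14, Plau, Plat and Slpi. This rule found 67 of the 14968 genes in the table. Of these, 51 had a mean of at least 0.5 FPKM (fragments per kilobase of transcript, scaled for the size of the library) in 1 or both groups and were tested, 16 were below this level, and 3 of the 16 (Serpina11, Serpina3c and Klk5) were listed at 0 in all libraries. Epithelium was taken, 1 day after it had been scraped from the cornea, from the limbus and the healing area inside it, in male C57BL/6 mice whose age at collection was not given in the sources used here. Of 6 libraries of polyadenylated RNA, 3 came from mice with type 1 diabetes, 16 weeks after injection of streptozotocin (STZ), which kills pancreatic beta cells, and 3 came from age-matched control mice, described as counterparts, for which the sources used here give no vehicle treatment. Both groups were wounded, and because several mice were pooled for each library, replicates differ as pools do and not as single animals.

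Serine proteases of the trypsin fold cut proteins with an active-site serine, and most are made as inactive precursors that another protease activates. At epithelial surfaces, membrane-anchored enzymes such as matriptase (St14), prostasin (Prss8) and the Tmprss11 enzymes act on the barrier, on sodium channels and on receptors, kallikreins take part in the shedding of surface cells, and the plasminogen activators Plau and Plat make plasmin, which clears fibrin from a wound. Their inhibitors are serpins, which trap a protease through a large change of shape, and the smaller Kunitz and WAP (whey acidic protein) inhibitors. Clade B serpins mostly stay inside the cell, whereas clades A, C, D, E, F, G and I are mostly secreted.

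The tissue carried its defining markers. The corneal keratin Krt12 lay between 3746 and 5743 FPKM in diabetic libraries and between 3064 and 3746 FPKM in control libraries, and Pax6, a regulator of corneal identity, between 9.88 and 14.2 FPKM in diabetic and between 11.1 and 15.3 FPKM in control libraries. FPKM values summed to between 308757 and 329734 per diabetic library and between 330302 and 331926 per control library. The sequencing depth of the libraries is unknown, since FPKM holds no read counts. Control replicate 2 stood apart from the other 5 libraries in genes typical of liver. Albumin (Alb) was at 22.9 FPKM there and at no more than 0.0995 FPKM elsewhere, and 11 liver genes chosen after the data were seen summed to 61.7 FPKM there, against 0.347, 0.132 and 0.0411 FPKM in diabetic replicates 1, 2 and 3 and 0.320 and 0.264 FPKM in control replicates 1 and 3. Results that rest on this library are therefore given with and without it. Diabetic replicate 2 stood apart in lens genes, of which 8 summed to 127, 375 and 94.9 FPKM in diabetic replicates 1, 2 and 3, against 56.1, 65.02 and 67.9 FPKM in control replicates 1, 2 and 3. The sum of 5 red blood cell genes was lower in all diabetic libraries, at 17.9, 9.898 and 22.2 FPKM, against 40.9, 107 and 43.7 FPKM in control libraries. Of these 5, the 4 globin genes were lower and Alas2 was higher (log2 fold change 0.22). The part of all these genes in the differences of the members was not tested.

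None of the 51 members passed the adjusted threshold (limma, Benjamini-Hochberg adjustment over 12149 genes, 0.05), which 8 genes, or 0.0658% of all tested, did. The smallest adjusted p among the members was 0.179, for Serpinb5. When the study's own thresholds were applied to the limma fit (unadjusted p under 0.05, difference of at least 1.5-fold), 3 members (5.88%) were lower in diabetic epithelium, namely Serpinb2, Serpinb3a and Plau, against 1.26% of all genes, and 1 (1.96%), Slpi, was higher, against 1.23% of all genes. Without the fold criterion, 5 members (9.8%) were lower, adding Serpinb5 and Tmprss11g, against 6.91% of all genes, and 3 (5.88%) were higher, namely Slpi, Prss27 and Plat, against 4.61%. The values of the groups did not overlap for 5 members that were lower (9.8%, against 10.9% of all genes) and for 4 that were higher (7.84%, against 6.68%). The shares without the fold criterion and the shares without overlap were close to those of all genes. The share of lower members at the thresholds of the study was above that of all genes, but it rests on 3 genes and the excess was not tested.

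Without diabetic replicate 1, 2 members passed the adjusted threshold in limma, Serpinb2 (adjusted p = 0.0122) and Serpinb3a (adjusted p = 0.0247), and 66 of all genes did. Over the members tested 21 were higher and 30 lower in diabetic epithelium, with a median log2 fold change of -0.03 on the log2(FPKM + 1) scale, as for all fold changes here. Over all genes tested the split was similar, with 4735 higher and 7414 lower and a median of -0.04. The split of the members depended on scaling, with 27 higher and 24 lower after median-of-ratios scaling. The median standard error of a member was 0.17, against 0.12 over all genes. Together the members took 0.720%, 0.747% and 0.752% of the summed FPKM in diabetic replicates 1, 2 and 3, against 0.802%, 0.757% and 0.692% in control replicates 1, 2 and 3. These shares overlapped. Over the 6 libraries the 10 most abundant members, led by Prss27 and Serpinb5, made up 71.3% of the members' FPKM.

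**Figure D1:**
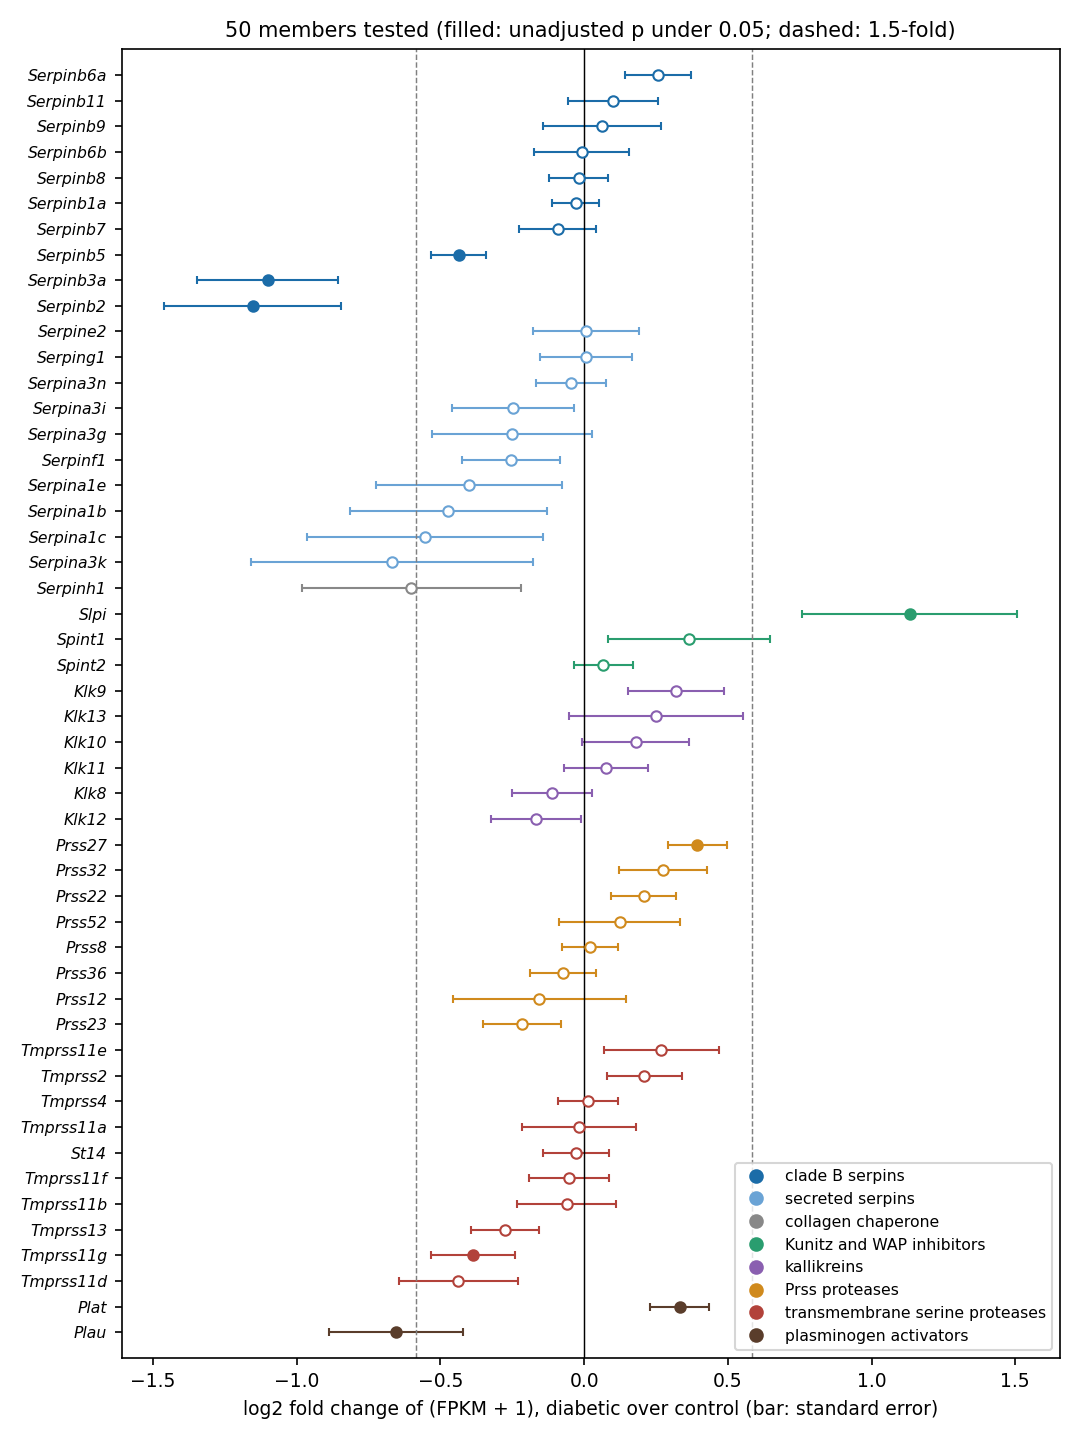
Log2 fold change of (FPKM + 1), diabetic over control, with its standard error (horizontal axis) for 50 of the 51 members tested (vertical axis), coloured by role. Filled points had an unadjusted p under 0.05 in limma, and dashed lines mark 1.5-fold. Of the filled points 3 lie right and 5 left of 0, and the open points are members with an unadjusted p above this.

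Among the clade B serpins, 3 genes of 1 cluster on chromosome 1 were lower in diabetic epithelium, with no overlap between the groups, whereas the other 7 tested lay within a log2 fold change of -0.09 to 0.26. Serpinb5 (ENSMUSG00000067006.12, chromosome 1, 106861173 to 106883348 on GRCm38, plus strand) encodes maspin, which is made by epithelial cells and is regarded as a serpin without inhibitory activity. It was the second most abundant member, with 292, 311 and 276 FPKM in diabetic replicates 1, 2 and 3, against 434, 403 and 356 FPKM in control replicates 1, 2 and 3. Every diabetic library was below every control library, with means of 293 ± 17.6 FPKM in diabetic and 398 ± 39.4 FPKM in control libraries (SD, n = 3 each) and a log2 fold change of -0.44 (SE 0.10, adjusted p = 0.179).

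Serpinb3a (ENSMUSG00000044594.14, chromosome 1, 107045587 to 107052303, minus strand), a relative of the human squamous cell carcinoma antigens, had 68.2, 31.2 and 42.5 FPKM in diabetic libraries, against 97.5, 99.1 and 96.0 FPKM in control libraries. The control libraries lay within a few FPKM of each other, while the diabetic libraries were spread and all lower. The means were 47.3 ± 19.0 FPKM in diabetic and 97.5 ± 1.56 FPKM in control libraries (SD, n = 3 each), with a log2 fold change of -1.10 (SE 0.25, adjusted p = 0.185). Of the 50-base windows of its transcripts, 15% also occur in transcripts of other genes, among them Serpinb3b, Serpinb3c and Serpinb3d, so part of its value may depend on how such reads were assigned.

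Serpinb2 (ENSMUSG00000062345.10, chromosome 1, 107511423 to 107535478, plus strand) encodes plasminogen activator inhibitor 2, which inhibits the product of Plau. It had 9.89, 4.22 and 3.31 FPKM in diabetic libraries, against 13.2, 12.9 and 12.7 FPKM in control libraries. As for Serpinb3a, diabetic replicate 1 was the diabetic library nearest to the controls. The means were 5.81 ± 3.57 FPKM in diabetic and 12.9 ± 0.216 FPKM in control libraries (SD, n = 3 each), and the log2 fold change was -1.15 (SE 0.31, adjusted p = 0.264). Without diabetic replicate 1 it was -1.55. Of its exonic bases 12.4% overlap Serpinb10 on the same strand. Serpinb2 is also expressed by macrophages, and the summed FPKM of 8 macrophage markers was 103, 102 and 76.1 in diabetic libraries, against 74.2, 75.4 and 88.4 in control libraries, and limma gave an unadjusted p under 0.05 for C1qa and C1qc (lower) and for Lyz2 (higher). The part of these cells in the Serpinb2 difference was not tested, and in bulk samples fewer cells of a type and less RNA per cell cannot be told apart.

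The ratio of Serpinb3a to Serpinb2 was 6.90, 7.40 and 12.8 in diabetic libraries, against 7.41, 7.71 and 7.54 in control libraries, so that outside diabetic replicate 3 both genes kept a similar proportion. The 250 bases before the start of these 3 genes, from RefSeq (GRCm38.p6), are shown because the genes share a cluster and were lower in the same libraries. Capitals mark the AP-1 motif TGANTCA and the box TATAAA, each searched on both strands, where neither overlapped the other.
Serpinb5, chr1:106860925-106861174, plus strand: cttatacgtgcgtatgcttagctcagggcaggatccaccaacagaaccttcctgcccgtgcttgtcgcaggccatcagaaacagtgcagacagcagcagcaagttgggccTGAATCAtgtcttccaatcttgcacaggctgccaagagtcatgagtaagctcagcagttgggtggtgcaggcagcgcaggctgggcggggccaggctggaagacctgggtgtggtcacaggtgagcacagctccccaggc
Serpinb3a, chr1:107052304-107052553, minus strand: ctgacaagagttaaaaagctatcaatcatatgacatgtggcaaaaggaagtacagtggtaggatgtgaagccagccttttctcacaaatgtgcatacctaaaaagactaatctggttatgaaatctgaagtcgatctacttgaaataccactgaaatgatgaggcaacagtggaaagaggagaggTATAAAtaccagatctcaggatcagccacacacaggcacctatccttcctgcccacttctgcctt
Serpinb2, chr1:107511173-107511422, plus strand: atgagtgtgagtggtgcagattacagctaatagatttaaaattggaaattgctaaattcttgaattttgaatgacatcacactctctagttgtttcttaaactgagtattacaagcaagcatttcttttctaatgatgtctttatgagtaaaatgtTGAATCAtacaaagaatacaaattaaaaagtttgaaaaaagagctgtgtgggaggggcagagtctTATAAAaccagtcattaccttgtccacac
Serpinb5 and Serpinb2 hold the AP-1 motif, 140 and 94 bases before the start, and Serpinb3a and Serpinb2 hold TATAAA, 65 bases before the start in Serpinb3a. Of the 53 members found in the promoter table, 12 (22.6%) hold TGANTCA, against 7.82% of 27025 genes with a window of the same length, and 5 (9.43%) hold TATAAA, against 14.3%. The 12 include both genes that were lower and genes that passed no threshold in these libraries, such as Serpinb11, Serpinb7 and Serpinb8. For 4 other motifs searched, the shares of members and of all genes were 22.6% and 18.2% for AGAACA, 24.5% and 35.4% for GGGCGG, 39.6% and 37.5% for CCAAT and 17% and 18.5% for ACGTG. These matches are a description of the letters, and no test was made.

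**Figure D2:**
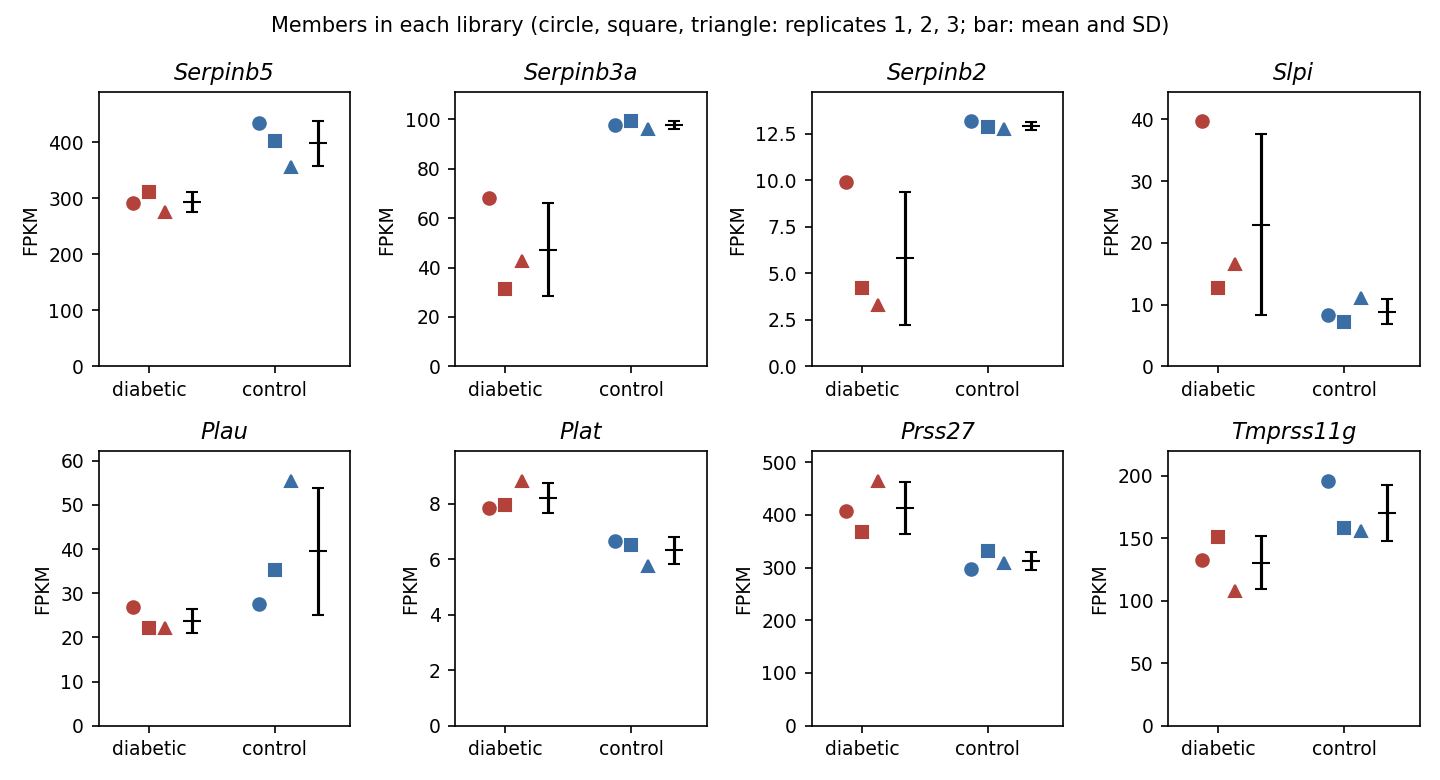
FPKM (vertical axis, from 0) of the 8 members with an unadjusted p under 0.05 in limma, in 3 diabetic and 3 control libraries, with the mean and SD at the side of each group. Serpinb5, Serpinb3a, Serpinb2, Plau and Tmprss11g lie lower in all diabetic libraries, and Slpi, Plat and Prss27 higher, although diabetic replicate 1 of Slpi and control replicate 3 of Plau lie far from the rest of their group.

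The remaining clade B serpins differed little. Serpinb11, which lies between Serpinb3a and Serpinb2 in the same cluster, had 125, 160 and 122 FPKM in diabetic libraries, against 145, 131 and 103 FPKM in control libraries, and these overlapped (log2 fold change 0.10, adjusted p = 0.839). The ratio of Serpinb5 to Serpinb11 was thus 2.34, 1.95 and 2.27 in diabetic libraries, all below the 2.99, 3.07 and 3.45 of control libraries. This ratio is a description and was not tested. Serpinb1a, an inhibitor of neutrophil elastase, was among the steadiest members, between 76.1 and 80.4 FPKM in diabetic and between 78.4 and 83.4 FPKM in control libraries (log2 fold change -0.03, adjusted p = 0.920). Serpinb6a, an intracellular inhibitor, was the only clade B serpin whose diabetic libraries all lay above the controls, with 44.5, 50.4 and 50.9 FPKM, against 42.2, 35.4 and 44.2 FPKM in control libraries (log2 fold change 0.26, adjusted p = 0.452). Of its exonic bases 29.3% overlap other genes, all on the opposite strand. Clade B serpins together summed to 628 ± 32.3 FPKM in diabetic and 775 ± 62.1 FPKM in control libraries (SD, n = 3 each), a sum that Serpinb5 dominates.

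The secreted serpins held no member past the unadjusted threshold. Of 11 tested, 9 were lower and 2 higher in diabetic epithelium, with a median log2 fold change of -0.25. This median depended on control replicate 2: without it, 7 were lower, 2 were higher and 2 were left with only values of 0, and the median was -0.03. The library held nearly all of the signal of 4 clade A serpins made chiefly by liver, the antitrypsin genes Serpina1b, Serpina1c and Serpina1e and the gene Serpina3k. These 4 reached the expression level tested only through the control group, so their being lower follows from the filter. They are also among the 30 members that were lower. Serpina3k was at 3.01 FPKM in control replicate 2 and listed at 0 in the other 5 libraries. Serpina1b was at 1.69 FPKM there and at no more than 0.0883 FPKM elsewhere. With all libraries the log2 fold changes of Serpina3k and Serpina1b were -0.67 (adjusted p = 0.633) and -0.47 (adjusted p = 0.628), and without control replicate 2 that of Serpina1b was -0.02. The same library held the liver transcripts given above. The antitrypsin genes share between 29.5% (Serpina1b) and 74.2% (Serpina1c) of their 50-base windows with other genes, so their levels cannot be told apart well.

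**Figure D3:**
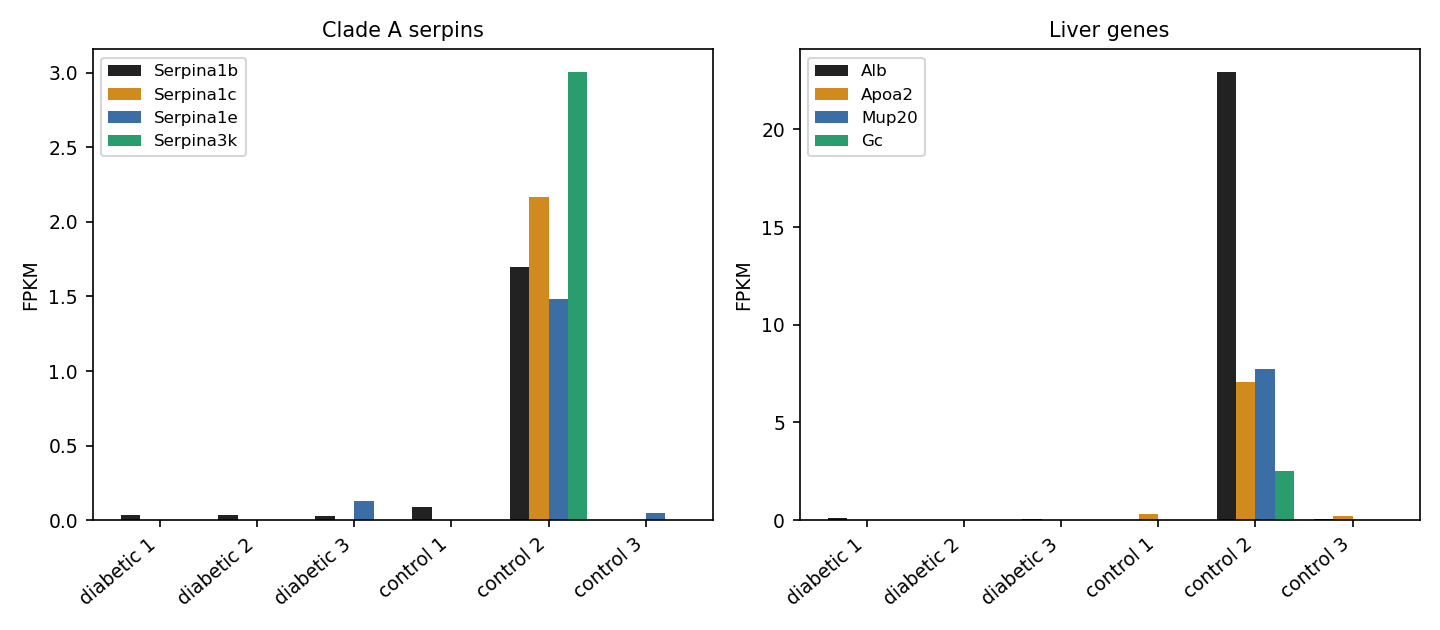
FPKM (vertical axis, from 0) of 4 clade A serpins (left) and 4 liver genes (right) in each of the 6 libraries. Control replicate 2 holds nearly all of the signal of both sets, with 3.01 FPKM of Serpina3k and 22.9 FPKM of Alb.

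The abundant secreted serpins overlapped between the groups. Serpina3n, an acute phase serpin related to antichymotrypsin, had 47.0, 36.7 and 36.2 FPKM in diabetic libraries, against 42.6, 39.9 and 40.4 FPKM in control libraries (log2 fold change -0.05). Serping1, the inhibitor of complement C1, had 62.6, 51.4 and 40.5 FPKM in diabetic libraries, against 48.0, 48.3 and 55.7 FPKM in control libraries (log2 fold change 0.00). Serpinf1 encodes pigment epithelium-derived factor, an inhibitor of vessel growth. It had 42.2, 42.5 and 28.5 FPKM in diabetic libraries, against 50.3, 41.0 and 42.7 FPKM in control libraries (log2 fold change -0.25, adjusted p = 0.598).

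Serpinh1, the collagen chaperone Hsp47 and no protease inhibitor, had 31.3, 22.01 and 10.5 FPKM in diabetic libraries, against 41.9, 21.7 and 29.7 FPKM in control libraries (log2 fold change -0.60, adjusted p = 0.582). It was lowest in diabetic replicate 3, and without that library the log2 fold change was -0.19. Without diabetic replicate 1 it was -0.93, with an unadjusted p of 0.0330 in limma. Serpinf1 and Serpinh1 are typical of stromal fibroblasts. All 8 stromal markers were in the table and none was at 0, and they summed to 378, 395 and 278 FPKM in diabetic libraries, against 437, 408 and 434 FPKM in control libraries. Of these 8, limma gave an unadjusted p under 0.05 for 3 that were lower (Kera, Col1a1 and Col1a2) and for 0 that were higher, while Vim and Pdgfra had log2 fold changes of 0.27 and 0.19. The part of stromal cells in these 2 serpins was not tested.

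The 3 Kunitz and WAP inhibitors were all higher in diabetic epithelium, 1 of them past the thresholds of the study. Slpi (ENSMUSG00000017002.14, chromosome 2, 164354070 to 164389095, minus strand), a secreted WAP inhibitor of neutrophil elastase and cathepsin G, had 39.7, 12.7 and 16.5 FPKM in diabetic libraries, against 8.29, 7.23 and 11.1 FPKM in control libraries. All diabetic libraries were above all control libraries, but diabetic replicate 1 stood far above the other two. The means were 23.0 ± 14.6 FPKM in diabetic and 8.87 ± 2.003 FPKM in control libraries (SD, n = 3 each), with a log2 fold change of 1.13 (SE 0.37, adjusted p = 0.327). It was 0.67 without diabetic replicate 1, and without control replicate 2 it was 1.01 with an unadjusted p of 0.0605 in limma, which no longer passed.

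Neutrophils also make Slpi, and most of their markers were higher in diabetic epithelium. Of 13 markers listed, 12 were in the table, and they summed to 1188, 792 and 835 FPKM in diabetic libraries, against 574, 427 and 748 FPKM in control libraries. S100a8, S100a9 and Lcn2, which epithelial cells make too, account for most of this sum. Of 8 tested, 2 (S100a9 and Lcn2) were higher at an unadjusted p under 0.05 in limma and 0 were lower. The granule gene Ltf, at 20.3, 11.2 and 11.1 FPKM in diabetic libraries, against 15.2, 18.6 and 21.8 FPKM in control libraries, had a log2 fold change of -0.40, and the receptor gene Il1r2 one of 0.06. The receptor genes Csf3r and Cxcr2 were at 2.61 and 2.79 FPKM in diabetic replicate 1 and between 0.504 and 0.912 FPKM in diabetic replicates 2 and 3, against between 0.481 and 1.28 FPKM in control libraries, while the granule genes Camp and Elane were listed at 0 in all libraries. The median over the markers lay 1.07, -0.02 and 0.12 (log2) from the control mean in diabetic replicates 1, 2 and 3. The part of neutrophils in the Slpi difference was not tested.

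The Kunitz inhibitors Spint1 and Spint2, which block matriptase and prostasin, were less clear. Spint1 had 14.7, 26.98 and 25.3 FPKM in diabetic libraries, against 23.9, 15.0 and 12.6 FPKM in control libraries. The groups overlapped, with 1 library of each group at the level of the other (log2 fold change 0.36, adjusted p = 0.653), and the log2 fold change was 0.63 without diabetic replicate 1 (unadjusted p = 0.0382 in limma), 0.21 without diabetic replicate 2 and 0.18 without control replicate 3. Spint2 was steady at 43.5, 39.5 and 37.8 FPKM in diabetic libraries, against 36.7, 41.7 and 36.7 FPKM in control libraries (log2 fold change 0.07, adjusted p = 0.841). Their targets were steady as well. Matriptase (St14) lay between 9.07 and 10.5 FPKM in diabetic and between 9.22 and 11.4 FPKM in control libraries (log2 fold change -0.03, adjusted p = 0.946), and prostasin (Prss8) between 36.4 and 42.1 FPKM in diabetic and between 37.4 and 40.9 FPKM in control libraries (log2 fold change 0.02, adjusted p = 0.957). The ratio of St14 to Spint1 followed Spint1, with 0.716, 0.381 and 0.358 in diabetic libraries, against 0.386, 0.762 and 0.787 in control libraries.

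Of the Prss proteases, Prss27 was the most abundant of all members and was higher in diabetic epithelium without overlap. Prss27 (ENSMUSG00000050762.5, chromosome 17, 24038144 to 24045954, plus strand) encodes marapsin, a trypsin-like protease made by stratified epithelia. It had 407, 367 and 465 FPKM in diabetic libraries, against 298, 331 and 309 FPKM in control libraries, with means of 413 ± 49.5 FPKM in diabetic and 313 ± 16.7 FPKM in control libraries (SD, n = 3 each). The log2 fold change was 0.39 (SE 0.10, adjusted p = 0.249). Its 2 neighbours on chromosome 17 were higher by smaller amounts, with overlap. Prss22, an epithelial tryptase, had 145, 132 and 121 FPKM in diabetic libraries, against 101, 122 and 122 FPKM in control libraries (log2 fold change 0.21, adjusted p = 0.527). Prss32 had 14.2, 14.4 and 11.5 FPKM in diabetic libraries, against 10.04, 13.4 and 9.35 FPKM in control libraries (log2 fold change 0.27, adjusted p = 0.539). These 3 genes span 202 kb, and they were higher in each of the 17 alternative fits, although Prss22 was at 0.12 without control replicate 1, and Prss32 at 0.18 without control replicate 3 and 0.42 without control replicate 2 (unadjusted p = 0.0234 in limma). Those of the 17 fits that change only the filter, the variance model or the replicate block cannot alter a log2 fold change. Of the other Prss genes tested, outside this cluster, 2 were higher and 3 lower, within a log2 fold change of -0.21 (Prss23) to 0.12 (Prss52). The 5 conjunctival markers in the table were also higher, by a median log2 fold change of 0.38 with 3 past an unadjusted p of 0.05 in limma, and they summed to 1985, 2281 and 2459 FPKM in diabetic libraries, against 1869, 2193 and 1970 FPKM in control libraries. Some genes of epithelial differentiation moved as well. The corneal keratin Krt12 (log2 fold change 0.52, adjusted p = 0.306) and involucrin, Ivl (0.53, adjusted p = 0.368), were higher, and the basal keratin Krt14 (-0.26, adjusted p = 0.264) was lower. Each had no overlap between the groups and an unadjusted p under 0.05 in limma. For Krt12 the groups barely parted, at 3746.26 FPKM in diabetic replicate 1 and 3745.61 FPKM in control replicate 2. The other corneal markers Krt5, Pax6, Aldh3a1 and Tkt had log2 fold changes of -0.05, -0.03, -0.07 and -0.02. Those of the skin-type markers Krt1 and Krt10 were 0.04 and -0.10. The part of these conjunctival and differentiation genes in the differences of Prss27 and Serpinb5 was not tested.

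The transmembrane proteases were led by the Tmprss11 genes of chromosome 5, a cluster of 7 that made up 28.5% of the members' FPKM over all libraries. Tmprss11c was below the expression level tested, and Tmprss11a and Tmprss11b were the most abundant. Tmprss11a had 162, 258 and 206 FPKM in diabetic libraries, against 249, 214 and 166 FPKM in control libraries, and Tmprss11b had 147, 193 and 182 FPKM in diabetic libraries, against 222, 184 and 144 FPKM in control libraries. Both overlapped between the groups, with log2 fold changes of -0.02 and -0.06. Tmprss11g (ENSMUSG00000079451.9, chromosome 5, 86485876 to 86518600, minus strand) was lower without overlap, with 133, 151 and 108 FPKM in diabetic libraries, against 196, 158 and 156 FPKM in control libraries. Its means were 130.4 ± 21.3 FPKM in diabetic and 170.1 ± 22.5 FPKM in control libraries (SD, n = 3 each), and the log2 fold change was -0.39 (SE 0.15, adjusted p = 0.382). The unadjusted p in limma, 0.0301, was 0.0904 without diabetic replicate 3 and 0.111 without control replicate 1, and the log2 fold change was -0.26 and -0.28 in these fits. With library weights it was -0.26 with an unadjusted p of 0.0790.

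Tmprss11d and Tmprss11e differed in opposite directions, neither past a threshold with all libraries. Tmprss11d (ENSMUSG00000061259.11, chromosome 5, 86302217 to 86373420, minus strand), known in humans as airway trypsin-like protease, had 47.0, 64.9 and 57.4 FPKM in diabetic libraries, against 98.9, 78.0 and 57.1 FPKM in control libraries (log2 fold change -0.44, SE 0.21, adjusted p = 0.475). Control replicate 3 lay at the level of the diabetic libraries. Without control replicate 1 the log2 fold change was -0.25, and without control replicate 3 it was -0.64 with an unadjusted p of 0.00910 in limma, past the thresholds of the study. The unadjusted p was also under 0.05 without diabetic replicate 2 (0.0495) and with library weights (0.0492). Tmprss11e (ENSMUSG00000054537.8, chromosome 5, 86705186 to 86745815, minus strand) had 76.4, 105 and 94.6 FPKM in diabetic libraries, against 96.2, 78.9 and 56.6 FPKM in control libraries (log2 fold change 0.27, SE 0.20, adjusted p = 0.637). Leaving out control replicate 3 gave 0.06, leaving out diabetic replicate 2 gave 0.17, and leaving out control replicate 1 gave 0.44.

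Within each group, however, the 2 genes stood in a nearly constant proportion. The ratio of Tmprss11d to Tmprss11e was 0.615, 0.620 and 0.607 in diabetic libraries, against 1.03, 0.989 and 1.01 in control libraries. The spread within each group was far smaller than the gap between them. This pair was chosen after its values were seen, as the pair with the largest difference of mean log2 ratio (-0.72) among 15 pairs of the 6 Tmprss11 genes tested. The ratio is therefore a description and carries no test. Of the 15 pairs, 7 did not overlap between the groups, and all of these but Tmprss11f over Tmprss11g hold Tmprss11d or Tmprss11e. Pairs that share a gene are not separate observations, and no share over other gene pairs was worked out. With 3 libraries a group, exact permutation could reach no p lower than 0.1. Neither gene shares more than 0.51% of its 50-base windows with another gene, and no exonic base of either overlaps another gene.

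**Figure D4:**
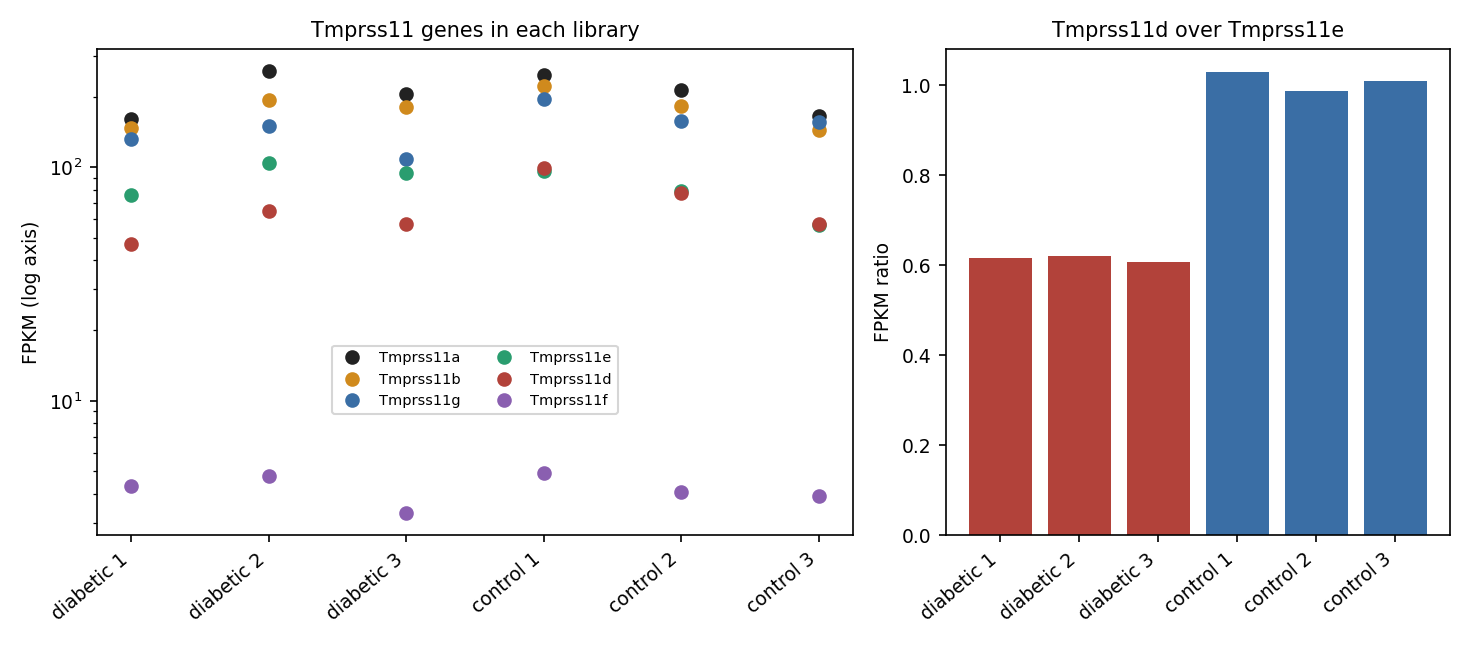
FPKM of the 6 Tmprss11 genes tested (left, log axis) and the ratio of Tmprss11d to Tmprss11e (right, from 0) in each of the 6 libraries. The ratio is 0.607 to 0.620 in diabetic and 0.989 to 1.03 in control libraries, while the levels of both genes differ between the libraries of 1 group.

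The stretch around the active-site serine is shown for proteases whose values are described here, since it holds the serine with which they cut proteins. Each line gives 30 bases of the spliced coding sequence (GENCODE M21) with the codon of the serine in capitals.
Tmprss11d: tgccagggtgatTCAggtggcccgctagta
Tmprss11e: tgccagggtgacTCGggaggtccacttgtt
Tmprss11g: tgtgaaggtgatTCTggagggcctctggtt
Prss27: tgtaagggtgacTCTggaggcccactggtg
Prss22: tgtctgggcgacTCTgggggtcccctgatg
Plau: tgcaagggcgatTCTggaggaccgcttatc
Plat: tgccagggtgacTCGggaggccctctggtg
Of 34 protease members, 30 encode the motif glycine, aspartate, serine, glycine, glycine, proline in full, and 23 of the 26 tested do. The exceptions are Klk10, Prss23, Prss35 and Prss52. The serine codon begins with TC in 24 of the 30 and with AG in 6. The Tmprss11d and Tmprss11e stretches differ at several bases but encode the same motif.

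Outside this cluster, Tmprss13, Tmprss2 and Tmprss4 overlapped between the groups. Tmprss13 had 10.9, 13.1 and 12.1 FPKM in diabetic libraries, against 16.0, 15.3 and 12.98 FPKM in control libraries, and 1 control library lay just below the highest diabetic one (log2 fold change -0.27, adjusted p = 0.438). Tmprss2 lay between 15.1 and 20.1 FPKM in diabetic and between 14.1 and 16.8 FPKM in control libraries (log2 fold change 0.21). Tmprss4 lay between 45.6 and 54.6 FPKM in diabetic and between 49.4 and 53.3 FPKM in control libraries (log2 fold change 0.01).

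Kallikreins, which share a cluster of 139 kb on chromosome 7, held no member past the unadjusted threshold and none without overlap. Of 8, 6 were tested, 4 of them higher and 2 lower, with a median log2 fold change of 0.13, which was -0.04 without diabetic replicate 1. Klk10 was the most abundant, with 37.8, 23.7 and 31.2 FPKM in diabetic libraries, against 23.1, 25.7 and 31.96 FPKM in control libraries (log2 fold change 0.18, adjusted p = 0.749). Leaving out diabetic replicate 1 gave a log2 fold change of 0.03, and leaving out diabetic replicate 2 gave 0.35. Klk9 had the smallest p of the family, with 1.01, 0.367 and 0.824 FPKM in diabetic libraries, against 0.330, 0.239 and 0.563 FPKM in control libraries. At these levels its log2 fold change depended on the pseudocount, with 0.32 at 1 (adjusted p = 0.512) and 0.77 at 0.1, and without diabetic replicate 2 it was 0.48 with an unadjusted p of 0.0126 in limma. Klk9 reached the expression level tested only through the diabetic group (mean 0.733 FPKM, against 0.377 FPKM in control libraries). Its being higher therefore follows from the filter, and it is counted among the 4 kallikreins that were higher. Klk12 had 1.35, 1.06 and 1.20 FPKM in diabetic libraries, against 0.984, 1.55 and 1.97 FPKM in control libraries. The log2 fold change of Klk12 was -0.17 (adjusted p = 0.715). Leaving out control replicate 1 gave -0.32 for Klk12, with an unadjusted p under 0.05 in limma, and leaving out control replicate 3 gave -0.03. Klk8, known as neuropsin, lay between 12.5 and 13.6 FPKM in diabetic and between 11.6 and 16.9 FPKM in control libraries (log2 fold change -0.11).

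The plasminogen activators differed in opposite directions, each without overlap. Plau (ENSMUSG00000021822.3, chromosome 14, 20836660 to 20843385, plus strand), the urokinase that epithelial cells make at a wound edge, had 26.9, 22.2 and 22.2 FPKM in diabetic libraries, against 27.6, 35.3 and 55.5 FPKM in control libraries. Control replicate 1 lay just above the highest diabetic library, and control replicate 3 far above all. The means were 23.8 ± 2.74 FPKM in diabetic and 39.5 ± 14.4 FPKM in control libraries (SD, n = 3 each), with a log2 fold change of -0.65 (SE 0.23, adjusted p = 0.353). Without control replicate 3 it was -0.38, below 1.5-fold, and without diabetic replicate 2 or 3 the unadjusted p in limma was 0.0628 and 0.0709.

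Plat (ENSMUSG00000031538.6, chromosome 8, 22757727 to 22782844, plus strand), the tissue-type activator, had 7.84, 7.96 and 8.83 FPKM in diabetic libraries, against 6.66, 6.52 and 5.76 FPKM in control libraries. Its means were 8.21 ± 0.538 FPKM in diabetic and 6.31 ± 0.487 FPKM in control libraries (SD, n = 3 each), with a log2 fold change of 0.33 (SE 0.10, adjusted p = 0.307). The ratio of Plau to Plat was 3.44, 2.79 and 2.51 in diabetic libraries, against 4.14, 5.42 and 9.64 in control libraries. That the ratio did not overlap follows from the levels of both genes and is no separate observation. Plau remained the more abundant of both in every library.

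Genes that work with these proteases were taken from lists. Of 11 genes tested of the plasminogen and protease receptor system, 0 passed an unadjusted p of 0.05 in limma in either direction. The smallest p were those of the serpin and lipoprotein receptors Vldlr (log2 fold change -0.26, adjusted p = 0.452) and Lrp1 (-0.29, adjusted p = 0.525) and of F2rl1 (-0.21, adjusted p = 0.539), the receptor that tryptic proteases activate. Vldlr reached the expression level tested only through the control group (mean 0.759 FPKM, against 0.465 FPKM in diabetic libraries). Its being lower therefore follows from the filter, and its log2 fold change was -0.62 at a pseudocount of 0.1. F2rl1 had 26.2, 27.5 and 21.9 FPKM in diabetic libraries, against 28.9, 31.4 and 27.3 FPKM in control libraries. The urokinase receptor Plaur had 10.02, 7.81 and 6.24 FPKM in diabetic libraries, against 4.55, 7.88 and 8.14 FPKM in control libraries (log2 fold change 0.21), with overlap.

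Of 14 substrates and partners of epithelial serine proteases, 2 were higher at an unadjusted p under 0.05 and 0 were lower, against the 4.61% and 6.91% of all genes. Both encode subunits of the epithelial sodium channel, which prostasin and matriptase can activate. Scnn1g had 4.14, 3.54 and 3.40 FPKM in diabetic libraries, against 2.46, 2.32 and 1.90 FPKM in control libraries (log2 fold change 0.54, adjusted p = 0.166). Scnn1a had 2.06, 2.65 and 3.81 FPKM in diabetic libraries, against 1.04, 2.02 and 1.44 FPKM in control libraries (log2 fold change 0.61, adjusted p = 0.326). The subunit gene Scnn1b, at 8.75, 8.42 and 8.29 FPKM in diabetic libraries, against 9.70, 6.90 and 7.46 FPKM in control libraries, overlapped. Mst1, which encodes a growth factor precursor that such proteases activate, had the next smallest p (log2 fold change -0.27, adjusted p = 0.524).

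Of 14 other secreted protease inhibitors, 4 were higher and 4 lower at this threshold, against 4.61% of all genes higher and 6.91% lower. Both shares of the list were above those of all genes. The list was chosen with earlier results of these data known, and the excess was not tested. Those lower were Spink5, Wfdc18, Cst3 and Spock1, and those higher were Csta1, Spink2, Wfdc2 and Wfdc21. Wfdc21 reached the expression level tested only through the diabetic group (mean 3.02 FPKM, against 0.109 FPKM in control libraries). Spock1 did so only through the control group (mean 0.999 FPKM, against 0.436 FPKM in diabetic libraries). The directions of Wfdc21 and Spock1 therefore follow from the filter. Spink5, the inhibitor of kallikreins in skin, had 71.5, 67.8 and 64.9 FPKM in diabetic libraries, against 111, 79.7 and 118 FPKM in control libraries (log2 fold change -0.57, adjusted p = 0.260). All diabetic libraries were below all control libraries. Wfdc18, a WAP protein of low level, had 0.777, 0 and 0.886 FPKM in diabetic libraries, against 2.52, 5.19 and 1.92 FPKM in control libraries (log2 fold change -1.42, adjusted p = 0.194). Csta1, a stefin that inhibits cysteine proteases, had 121, 130.0 and 129 FPKM in diabetic libraries, against 94.5, 96.4 and 107 FPKM in control libraries (log2 fold change 0.35, adjusted p = 0.243). Wfdc21 was near 0 in control libraries and highest in diabetic replicate 1, at 6.37, 1.94 and 0.747 FPKM in diabetic libraries, against 0.328, 0 and 0 FPKM in control libraries.

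Of 13 other serine proteases tested, 0 passed an unadjusted p of 0.05 in limma in either direction. The smallest p were those of the lymphocyte protease Gzma, with 8.67, 2.81 and 12.1 FPKM in diabetic libraries, against 0.833, 2.61 and 5.16 FPKM in control libraries (log2 fold change 1.19, adjusted p = 0.454), of coagulation factor F10 (0.43, adjusted p = 0.491) and of the mitochondrial protease Htra2 (-0.30, adjusted p = 0.491). Single libraries moved these values, to 0.74 for Gzma without control replicate 1, to 0.17 for F10 without diabetic replicate 1, and for Htra2 to -0.45 without control replicate 1 (unadjusted p = 0.00772 in limma) and -0.20 without control replicate 2. F10 reached the expression level tested only through the diabetic group (mean 0.835 FPKM, against 0.317 FPKM in control libraries). Its being higher therefore follows from the filter, and its log2 fold change was 1.01 at a pseudocount of 0.1. The mast cell proteases Mcpt4, Cma1 and Tpsb2 were at no more than 0.214 FPKM in any library.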

How the data were processed

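The authors deposited FPKM values of protein-coding genes, quantified per the labels with FastQC, cutadapt, HISAT2 and StringTie on GRCm38 from stranded libraries, with versions not given in the sources used here. Groups and replicate numbers came from sample titles. Genes with a mean of at least 0.5 FPKM in 1 or both groups entered a linear model of log2(FPKM + 1) in limma (version 3.58.1, run in R 4.3.3), diabetic minus control, with moderated variances and an intensity trend (4 residual and 3.65 prior degrees of freedom), two-sided, and Benjamini-Hochberg adjustment over all 12149 genes at 0.05. No count test was made, since FPKM carries no counts. P-values measure the spread between pools of mice.

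The members, the lists of related genes and of cell type markers, and the liver list were chosen with earlier results of these data known. Named are members past the thresholds of the study, the 10 most abundant, the 3 with the smallest p in each role group, St14, Plau, Plat and Slpi, and 3 genes of each related list. Other genes named were chosen after their values were seen. Values of 1 member are not reported here. All 67 gene IDs were found in GENCODE M21, 63 with identical positions. Windows of 50 bases of its transcripts were compared with all other transcripts for shared sequence, and coding sequences were read from it. Promoter windows were taken from RefSeq. The fitting procedure was tested on simulated data. Alternatives were the pseudocount, the filter, the scaling (TPM, quantile, median of ratios), the variance model, a replicate block and leaving out each library.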

Additional observations from a re-analysis of the deposited data

How the results depend on the processing

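No member passed the adjusted threshold in limma with all 6 libraries, where 5 members were lower and 3 higher at an unadjusted p under 0.05. Leaving out 1 library gave 3 (without diabetic replicate 3) to 7 lower (without diabetic replicate 1, diabetic replicate 2 or control replicate 3) and 3 to 6 higher (without diabetic replicate 1, which added Serpinb6a, Spint1 and Tmprss2). As TPM and after quantile normalization 5 were higher, adding Prss22 and Serpinb6a, and after median-of-ratios scaling 6, adding Prss32 too. At the adjusted threshold 1 passed with library weights, Serpinb3a (adjusted p = 0.0394), and leaving out 1 library gave 0 to 2. Members lower at the thresholds of the study numbered 3, and 2 (without diabetic replicate 2 or 3, which lost Plau) to 4 (without diabetic replicate 1, which added Serpinh1) with 1 library left out, while without control replicate 3 Tmprss11d took the place of Plau. Members higher numbered 1, and 0 (without control replicate 2, which lost Slpi) to 2 (without diabetic replicate 1, which added Spint1). The median log2 fold change of the members lay between -0.10 and -0.01 with 1 library left out. It was 0.01 as TPM, 0.01 after quantile normalization and 0.02 after median-of-ratios scaling, where 26, 26 and 27 of 51 members were higher instead of 21, and where Serpinb1a, St14 and Tmprss11a turned from just below to just above 0. For the counts past the adjusted and the study thresholds and for the median, all other alternatives gave counts within 1.5 times, or medians within the spread of the diabetic libraries. Serpinb2, Serpinb3a, Serpinb5, Prss27 and Plat kept their direction and an unadjusted p under 0.05 in limma in 17 of 17 alternatives, Slpi in 16, Plau in 15 and Tmprss11g in 14. Over all genes, 129 instead of 8 passed the adjusted threshold with library weights, 3 without intensity trend, 3 with the replicate block and 1 without a filter, and leaving out 1 library gave 1 to 66. Calls at the thresholds of the study were 149 higher and 153 lower, against 182 and 135 after median-of-ratios scaling, 264 and 233 as TPM, 213 and 234 at a pseudocount of 0.5 and 270 and 314 at 0.1. They were 180 and 289 without diabetic replicate 1 and 160 and 97 without diabetic replicate 3, and 148 to 186 higher and 97 to 289 lower over the 6 libraries left out in turn.

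Deviations of same-numbered libraries correlated at -0.198, 0.056 and -0.0862 over genes, and those of differently numbered libraries at -0.227 to 0.291. Same-numbered libraries thus did not stand out, but with 3 libraries a group these values cannot exclude a pairing. With the replicate block, 0 members passed the adjusted threshold, 3 were lower and 1 higher at the thresholds of the study, and the median log2 fold change was -0.03. Depth is unknown, and with 3 pools a group a member with the median standard error of 0.17 cannot be told from no difference unless it differs by several such errors.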
